A study of Mus musculus with 4 samples.

Results

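The genes described here are 36 genes of the lysosome, taken as a list of names of known lysosomal genes, with no threshold on their values, although earlier results of these data were known when the list was made. They comprise 8 proteases, 8 glycosidases, 3 further enzymes (a sulfatase, a sulfamidase and an acid lipase), 3 lumenal proteins that are not enzymes, 7 membrane proteins and 7 subunits of the proton pump. All 36 were among the 16051 genes of the table, and all were among the 10243 genes tested, which had a mean over the libraries of 1 FPKM or more, a unit that scales fragments to transcript length and library depth. They were measured by mRNA sequencing in 3T3-L1 cells, a mouse fibroblast line that can be differentiated into fat-storing cells, after differentiation and exposure to DMSO, the solvent, or to 100 μM risperidone, a second-generation antipsychotic, for 48 h. There were 2 libraries per treatment, each from RNA pooled from 3 cultures of the same line, so an SD or p-value here measures the spread between pools and not between single cultures. The sample labels give the strain of origin as NIH SWISS and call the control cells untreated, the tissue embryonic and the source of the RNA retina. They also name the cells as 3T3-L1, and the name DMSO follows the study's methods. Of the 6 retina markers in the table none reached a mean of 1 FPKM, with summed levels of 3.29 to 4.09 CPM. The labels name no genetic change in either group.

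Lysosomes are acidic organelles in which hydrolases degrade proteins, glycans, nucleic acids and lipids that arrive by endocytosis and autophagy. Their acidity is set by the V-ATPase, a rotary proton pump with a cytosolic V1 sector that hydrolyses ATP and a membrane V0 sector that passes protons. Many lysosomal genes carry a CLEAR element, an E-box bound by the transcription factors TFEB, TFE3 and MITF. In fat cells, lysosomal acid lipase degrades part of the stored lipid that reaches the organelle. Risperidone is a weak base, and weak bases can become protonated and accumulate in acidic compartments. Messenger RNA levels, which were measured here, report neither the amount of enzyme nor the pH of the organelle.

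Total estimated counts per library ranged from 15883712 to 16374119, and the 36 genes took 2.11% and 2.12% of them with DMSO and 2.30% and 2.28% with risperidone. Counts were scaled by the TMM method, which assumes that most genes do not change, and are given in CPM, counts relative to the scaled library total. Risperidone replicate 2 stood apart, with a summed level of 16 kidney markers of 239 CPM against 4.61 to 6.77 CPM in the other libraries, so the counts over the 36 genes, and those of smaller groups that change by over 1.5 times, are also given without it. Of the adipocyte markers, Fabp4 had 64.1 and 83.0 CPM with DMSO and 31.5 and 37.8 CPM with risperidone, and Lipe also fell, from 20.9 and 18.5 CPM to 9.34 and 8.84 CPM. Lpl fell by 0.24 on the log2 scale, Pnpla2 rose by 0.23 and Pparg had a difference of 0.12 that did not pass. The other 7 of the 12 adipocyte markers were below a mean of 1 FPKM. Adipoq, Cidec, Retn and Lep had at most 2 counts in any library and Cebpa and Cfd at most 5. Plin1 had 9 and 14 counts with DMSO and 1 in each risperidone library. That the cells were differentiated therefore rests on the study's methods. Fibroblast markers summed to 8995 and 8719 CPM with DMSO and to 10401 and 10272 CPM with risperidone. Of the 8 tested, 4 rose, 2 fell and 2, Vim and Pdgfra, did not pass. Col1a1, Thy1 and Dlk1 rose 1.98-fold, 2.08-fold and 2.86-fold and Col3a1 fell to 0.514 of the DMSO level. Col1a1 went from 2140.1 and 2068 CPM to 4312 and 4033 CPM, a larger rise than that of the sum. Col1a2, the most abundant of these markers, fell from 5089.6 and 4889 CPM to 4414 and 4541 CPM. The part of these marker changes in the results below was not tested. Macrophage markers, a concern because macrophages are rich in lysosomes, summed to 22.3 and 25.8 CPM with DMSO and to 24.2 and 24.8 CPM with risperidone, and 2 of the 11 in the table, Cd14 and Cd68, reached a mean of 1 FPKM. Cd14, which makes up most of that sum, fell from 18.8 and 21.0 CPM to 15.9 and 15.3 CPM, while Cd68 rose. Cells were not separated, so fewer cells of a type and less RNA per cell cannot be told apart.

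To determine how risperidone affected lysosomal transcripts, the 4 libraries were compared gene by gene. Of the 19 hydrolases 14 rose, most by small amounts, and 5 of the 36 genes, spread over several roles, changed by at least 1.5-fold. The α-N-acetylglucosaminidase Naglu, the cholesterol carrier Npc2 and the sulfatase Galns rose by 1.74-fold, 1.53-fold and 1.5-fold, and the β-glucuronidase Gusb and the collagen-degrading cathepsin Ctsk fell to 0.558 and 0.638 of the DMSO level. At a Benjamini-Hochberg adjusted p under 0.05 in edgeR's quasi-likelihood test, 20 of the 36 genes rose, 7 fell and 9 did not pass. Over all genes tested, 32.1% rose and 32.2% fell, so a call by itself was common in this comparison. The 3 genes past 1.5-fold upward and the 2 downward stand beside 9.57% and 12.2% of all genes. The median log2 fold change was 0.15 for the 36 genes and 0.00 for all genes, whose quartiles were -0.32 and 0.28, and the median absolute change was 0.26 against 0.30. Of the 20 genes that rose, 10 changed by less than 0.3 on the log2 scale. Without risperidone replicate 2, 24 genes rose and 6 fell, and the 1.5-fold counts were again 3 and 2. The number that rose was 13 without DMSO replicate 1, where 5 of the 8 proteases, 3 of the 8 glycosidases and 1 of the 3 further enzymes rose. On TPM these 3 groups had 4, 2 and 1 genes that rose. The number past 1.5-fold upward was 1 without risperidone replicate 1.

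**Figure D1:**
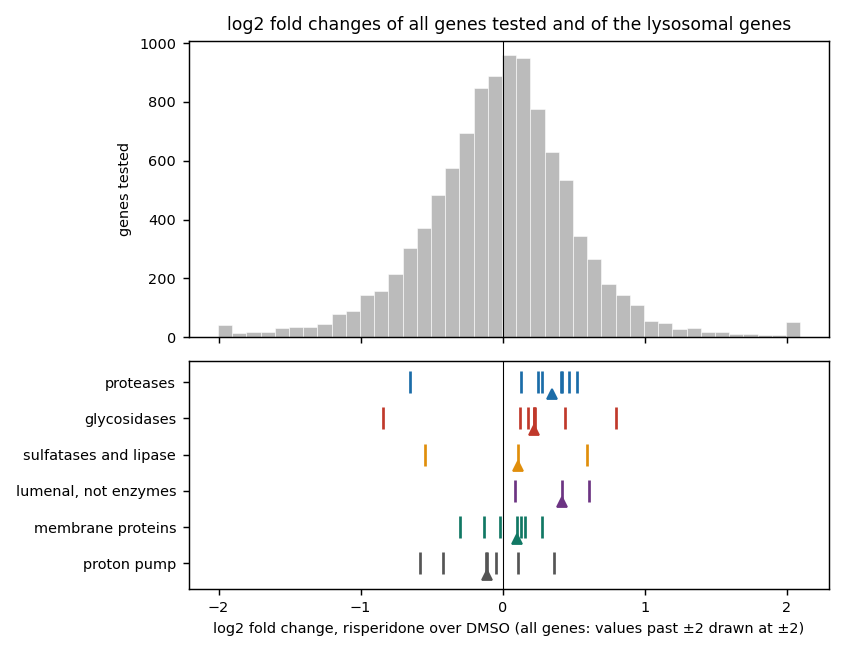
The upper panel shows a histogram of the log2 fold changes, risperidone over DMSO, of the 10243 genes tested, and the lower panel marks each of the 36 lysosomal genes by role, with a triangle under the median of each role. The lysosomal genes lie within the bulk of the distribution, with medians from -0.11 for the proton pump to 0.42 for the lumenal proteins that are not enzymes.

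The direction of the small changes depended on how the libraries were scaled. FPKM values summed to 482767 and 487207 with DMSO and to 546060 and 525448 with risperidone, and TPM, which divides by that sum, lowered the median of all genes to -0.22. On TPM, 9 of the 36 genes rose and 15 fell by limma, and their median was -0.07, which is above the median of all genes by the same 0.15 as on counts. The changes below are therefore relative to the typical gene. Of the 27 called genes, 15 kept their sign and their call in each of 14 alternative analyses. These were Ctsa, Ctsb, Ctsd, Ctsk, Ctsz, Gusb, Naglu, Gaa, Sgsh, Galns, Npc2, Grn, Npc1, Atp6v0d1 and Atp6v0e.

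**Figure D2:**
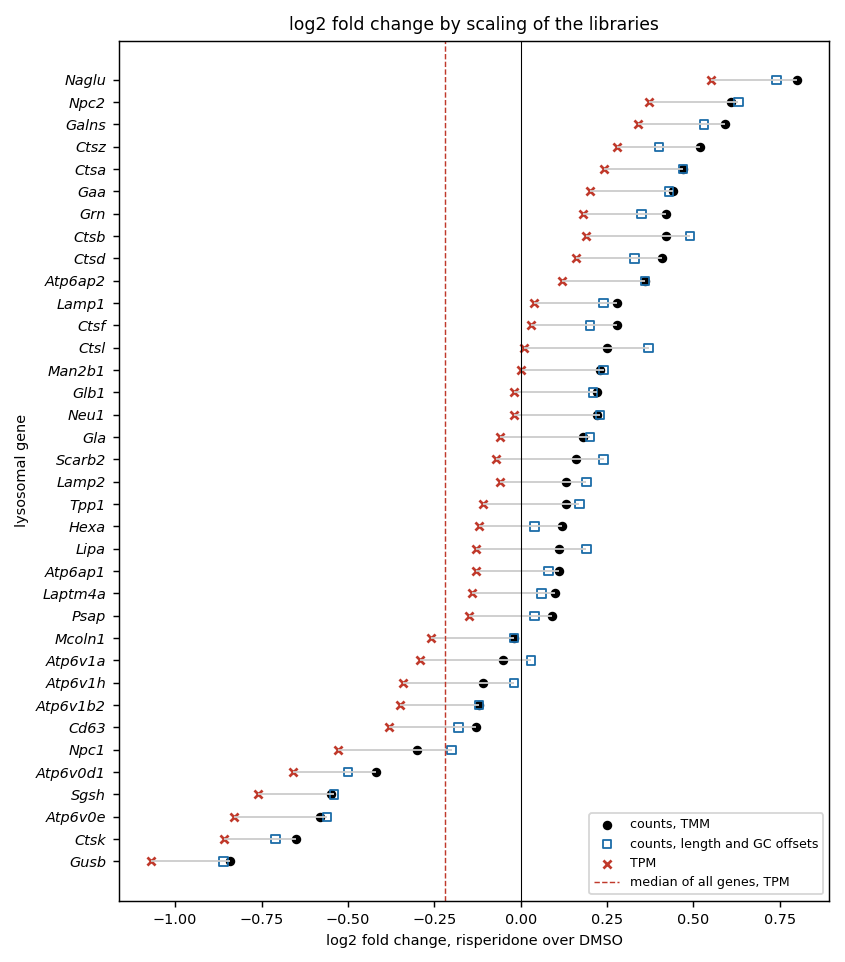
Log2 fold changes of the 36 lysosomal genes, ordered by the value from TMM-scaled counts (black), with the values after offsets for gene length and GC content (blue squares) and on TPM (red crosses), and a dashed line at -0.22, the median of all genes on TPM. The crosses are shifted to the left as a whole and the order of the genes at both ends is little altered.

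Psap, the precursor of the saposins that help glycosidases reach their lipid substrates, was the most abundant of these transcripts per length, with a mean of 1538 FPKM over the 4 libraries and rank 40 among all genes. The membrane glycoprotein Lamp1 followed with 1013 FPKM, the cysteine protease Ctsl with 899.6 FPKM and the aspartic protease Ctsd with 731 FPKM. Sgsh with 14.7 FPKM and Ctsf with 2.42 FPKM were the lowest, so the genes spanned the range from the highest expressed transcripts to near the limit for testing. Psap itself had 3776 and 3748 CPM with DMSO and 4026 and 3999 CPM with risperidone, a log2 difference of 0.09 that did not pass the test (edgeR adjusted p = 0.10), passed without either risperidone replicate 1 (0.0412) or risperidone replicate 2 (0.0209), and was -0.15 on TPM, where it passed as lower (limma adjusted p = 0.0248).

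Among the 8 proteases, 6 rose, 1 fell and 1 did not pass, with a median log2 fold change of 0.35. The serine carboxypeptidase Ctsa, also called protective protein because it stabilizes neuraminidase and β-galactosidase, had 529 and 516 CPM with DMSO and 733 and 717 CPM with risperidone. Ctsb, a cysteine protease, went from 1151 and 1129 CPM to 1563 and 1492 CPM, and Ctsd from 1157 and 1150 CPM to 1574 and 1481 CPM. In these genes both risperidone libraries were above both DMSO libraries, by 1.39-fold, 1.34-fold and 1.32-fold. The carboxypeptidase Ctsz had the largest rise of the group, from 104 and 107 CPM to 156 and 146 CPM (log2 fold change 0.52, SE 0.051, edgeR adjusted p = 6.92e-06). Smaller rises were found for Ctsl, from 1246 and 1261 CPM to 1517 and 1469.5 CPM, and for the tripeptidyl peptidase Tpp1, from 504 and 510 CPM to 561 and 549.8 CPM. On TPM the log2 value of Ctsl was 0.01 and that of Tpp1 was -0.11, so neither held its call under that scaling, where 4 of the 8 proteases rose and 1 fell. Over 14 alternatives Ctsl lost its call in 1, whereas Tpp1 lost it in 7 and changed sign in 1.

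Ctsk fell. This protease, best known from osteoclasts and also made by fibroblasts, had 28.2 and 26.0 CPM with DMSO and 18.1 and 16.4 CPM with risperidone (log2 fold change -0.65, SE 0.0849, edgeR adjusted p = 5.71e-05). Osteoclast markers were nearly absent: of the 5 in the table only Tcirg1, a pump subunit that many cells express, reached a mean of 1 FPKM. The ratio of Ctsb to Ctsk within a library, which does not depend on scaling, was 40.9 and 43.3 with DMSO and 86.3 and 90.7 with risperidone. Such ratios are given for pairs picked after their values were seen, and with 2 libraries against 2 an exact permutation test cannot go below p = 0.333. Ctsf, a cysteine protease with 65 to 87 reads per library, had 3.86 and 4.21 CPM with DMSO and 4.22 and 5.61 CPM with risperidone, a difference that was not detectable at this depth (edgeR adjusted p = 0.246). Among cathepsins outside the 36 genes, Ctso fell from 75.1 and 79.6 CPM to 56.0 and 53.7 CPM.

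Of the 8 glycosidases, 7 rose and 1 fell, and the median log2 fold change was 0.22. Naglu (gene identifier 27419), which acts in heparan sulfate breakdown, had 99.0 and 100 CPM with DMSO and 179.6 and 167 CPM with risperidone. Its change was the largest of the 36 genes upward (log2 fold change 0.80, SE 0.0515, edgeR adjusted p = 3.42e-07), and it lay between 0.55 and 0.85 on TPM and with any library left out. Gaa, the acid α-glucosidase that degrades glycogen, rose from 389 and 380.1 CPM to 515 and 526 CPM, a 1.35-fold change. Gusb (gene identifier 110006), which removes glucuronic acid from glycosaminoglycans, had the largest fall, from 111 and 109.7 CPM to 58.0 and 65.0 CPM (log2 fold change -0.84, SE 0.0639, edgeR adjusted p = 1.09e-06). The ratio of Naglu to Gusb was thus 0.895 and 0.912 with DMSO and 3.10 and 2.56 with risperidone.

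The other 5 glycosidases moved by less than 1.2-fold. The α-mannosidase Man2b1, the most abundant of the group per length with 360.5 FPKM, had 1048 and 1134 CPM with DMSO and 1292 and 1263 CPM with risperidone. The β-galactosidase Glb1 rose from 76.5 and 82.0 CPM to 91.4 and 93.1 CPM and the sialidase Neu1, which forms a complex with Glb1 and Ctsa, from 115 and 118 CPM to 134 and 137 CPM. Gla, the α-galactosidase, had log2 fold change 0.18 and Hexa, the α-chain of β-hexosaminidase, 0.12. These calls were not robust: on TPM the log2 value was 0.00 for Man2b1 and negative for Glb1, Neu1, Gla and Hexa, and without DMSO replicate 1 all but Neu1 lost the call. Of the 8 glycosidases, 2 rose and 2 fell on TPM, with a median of -0.02, and 3 rose and 1 fell without DMSO replicate 1.

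Galns and Sgsh, which both act in the breakdown of sulfated glycosaminoglycans, went in opposite directions. Galns, the N-acetylgalactosamine-6-sulfatase, had 51.0 and 54.2 CPM with DMSO and 80.2 and 77.9 CPM with risperidone (log2 fold change 0.59, SE 0.0634, edgeR adjusted p = 1.38e-05). Sgsh, the heparan N-sulfatase, fell from 75.8 and 70.4 CPM to 48.6 and 51.4 CPM (log2 fold change -0.55, SE 0.0678, edgeR adjusted p = 3.79e-05). Sgsh and Naglu act in the same degradation pathway of heparan sulfate, and the ratio of Naglu to Sgsh went from 1.31 and 1.42 to 3.69 and 3.24. The counts of Sgsh were not whole in any library, so part of its reads was shared with other genes or places by the counting. Lipa, the lysosomal acid lipase, which frees cholesterol and fatty acids from lipids taken into the organelle, had 211 and 201 CPM with DMSO and 229 and 216 CPM with risperidone. The log2 difference of 0.11 did not pass the test (edgeR adjusted p = 0.0699), was 0.15 without risperidone replicate 2 and passed there (edgeR adjusted p = 0.0161), so that 2 of these 3 enzymes then rose, was 0.19 and passed after offsets for length and GC content (edgeR adjusted p = 0.00577), and was -0.13 on TPM.

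**Figure D3:**
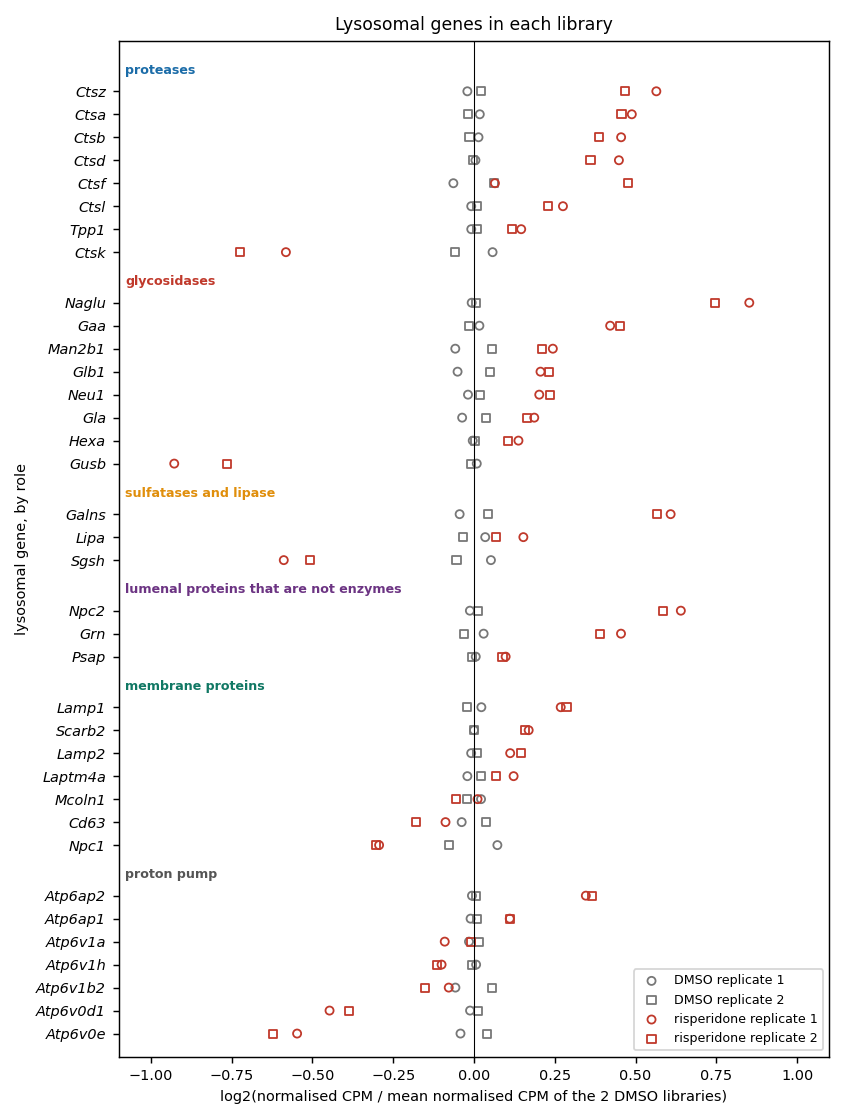
Level of each of the 36 lysosomal genes in each library, as log2 of its normalised CPM over the mean of the 2 DMSO libraries, grouped by role and ordered by change. Grey marks are DMSO and red marks risperidone, with circles for replicate 1 and squares for replicate 2, and the red pairs lie right of the grey pairs for most proteases and glycosidases and on both sides for the membrane proteins and the proton pump.

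Npc2 and Npc1, which pass cholesterol from the lumen to the lysosomal membrane one after the other, also changed in opposite directions. The soluble carrier Npc2 had 449 and 457 CPM with DMSO and 706 and 679 CPM with risperidone (log2 fold change 0.61, SE 0.0483, edgeR adjusted p = 1.38e-06). The membrane transporter Npc1 had 174 and 157 CPM with DMSO and 135 and 134 CPM with risperidone, a log2 fold change of -0.30 with SE 0.0557. The DMSO libraries differed from each other by more for Npc1 than for Npc2, yet both lay above the risperidone libraries. Within a library the ratio of Npc2 to Npc1 was 2.58 and 2.91 with DMSO and 5.23 and 5.06 with risperidone. Grn, the precursor of the granulins and a lysosomal protein needed for normal organelle function, rose 1.34-fold, from 1129 and 1083 CPM to 1516 and 1450.1 CPM.

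The 7 membrane proteins showed no common direction, with 3 that rose, 2 that fell, 2 that did not pass and a median of 0.10, and on TPM 4 fell and the median was -0.14. Without either DMSO library 1 rose and 1 fell, and without risperidone replicate 2, 4 rose and 1 fell. Lamp1, a major glycoprotein of the lysosomal membrane, had 1961 and 1899.8 CPM with DMSO and 2325 and 2354 CPM with risperidone (log2 fold change 0.28, 0.04 on TPM). Lamp2, its relative with roles in autophagy, had log2 fold change 0.13, and Scarb2, a scavenger receptor relative of the lysosomal membrane, had 0.16, and both were negative on TPM at -0.06 and -0.07. Cd63, a tetraspanin of late endosomes, fell from 489.7 and 516 CPM to 473 and 444 CPM (log2 fold change -0.13, edgeR adjusted p = 0.0454). Its log2 value lay between -0.18 and -0.09 with any library left out, and its call was lost in 6 of 14 alternatives. The calcium channel Mcoln1 had 134 and 130 CPM with DMSO and 133 and 127 CPM with risperidone, so its groups overlapped. On TPM its log2 value was -0.26 and it passed as lower (limma adjusted p = 0.00141). Laptm4a, a small transmembrane protein of late endosomes, had a log2 difference of 0.10 that did not pass (edgeR adjusted p = 0.107) and was -0.14 on TPM.

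Of the 7 proton pump genes, 1 rose, 2 fell and 4 did not pass, with a median of -0.11, and on TPM 6 fell and the median was -0.34, while the median was -0.02 after offsets for length and GC content and -0.06 without DMSO replicate 2. Without risperidone replicate 2, 2 rose and 2 fell, and without risperidone replicate 1, 2 rose and 3 fell. Atp6v0e, a small V0 subunit, had 200.2 and 212 CPM with DMSO and 141 and 134 CPM with risperidone (log2 fold change -0.58, SE 0.0506, edgeR adjusted p = 2.90e-06). Atp6v0d1, the V0 subunit that links to the central stalk, fell from 292 and 297 CPM to 216 and 225 CPM (log2 fold change -0.42, SE 0.0466, edgeR adjusted p = 1.78e-05). Atp6ap2, an accessory subunit also known as the prorenin receptor, rose from 224 and 226 CPM to 286 and 290 CPM (log2 fold change 0.36, SE 0.0448, edgeR adjusted p = 4.18e-05). Its log2 value was 0.12 on TPM, where it did not pass (limma adjusted p = 0.0635).

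The 3 V1 subunits of the list did not pass over all genes tested and all 4 libraries with TMM scaling. With a mean of at least 5 FPKM required, Atp6v1b2 and Atp6v1h passed as lower (edgeR adjusted p = 0.0285 and 0.0214) and 4 of the 7 pump genes fell, and without risperidone replicate 1 Atp6v1b2 passed as lower (0.0222). All 3 passed as lower with library size as the only scaling (edgeR adjusted p = 0.0276 for Atp6v1a, 0.00517 for Atp6v1b2 and 0.00303 for Atp6v1h) and on FPKM and TPM. Atp6v1a, the catalytic subunit, had 276 and 282 CPM with DMSO and 262 and 277 CPM with risperidone. Atp6v1b2, the other subunit of the ATP-hydrolysing ring, had a log2 difference of -0.12 with SE 0.0532, and Atp6v1h, a regulatory subunit, one of -0.11 with SE 0.0468. For Atp6v1a the log2 difference was -0.05 with SE 0.0484, -0.14 with library size only, -0.29 on TPM and 0.03 after offsets for length and GC content, where Atp6v1b2 passed as lower (edgeR adjusted p = 0.0458). The accessory subunit Atp6ap1 had 673 and 683 CPM with DMSO and 732 CPM in both risperidone libraries. Its log2 difference of 0.11 did not pass (edgeR adjusted p = 0.0559), and on TPM it was -0.13 and passed as lower (limma adjusted p = 0.0377). With DESeq2 both of the 2 accessory subunits, Atp6ap1 and Atp6ap2, passed as higher. Within a library, the ratio of Atp6v1a to Atp6v0e was 1.38 and 1.33 with DMSO and 1.86 and 2.07 with risperidone, and that of Atp6v1a to Atp6v0d1 was 0.946 and 0.951 against 1.22 and 1.23.

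To see whether this held for the pump as a whole, the broadly expressed subunits other than Rnasek were tabulated by sector. Rnasek, on the list of other V-ATPase subunits and assembly factors, was not placed in a sector. It rose from 79.9 and 78.2 CPM with DMSO to 119 and 105 CPM with risperidone (log2 fold change 0.50, SE 0.0646, edgeR adjusted p = 4.89e-05, 0.25 on TPM). Of 8 V1 subunits, 2 rose and 6 did not pass, with a median of -0.02. Those that rose were the stalk subunits Atp6v1f, with a log2 fold change of 0.24 (-0.01 on TPM, and 0.07 after offsets for length and GC content, where it did not pass), and Atp6v1g1, with 0.28 (0.04 on TPM). Of 7 V0 subunits, 1 rose, 4 fell and 2 did not pass, with a median of -0.13. Beside Atp6v0e and Atp6v0d1, those that fell were the proton-carrying ring subunit Atp6v0c, from 485 and 489 CPM to 443 and 446 CPM, and the a2 isoform Atp6v0a2, from 101 and 103 CPM to 87.1 and 85.7 CPM. The call of Atp6v0c was lost without either DMSO library (edgeR adjusted p = 0.134 and 0.162) and with a replicate block (0.0702). The a3 isoform Tcirg1 rose from 80.8 and 77.1 CPM to 97.0 and 96.6 CPM, and on TPM its log2 value was 0.06 and did not pass (limma adjusted p = 0.414). On TPM, 6 of the V1 subunits fell with a median of -0.26, and 6 of the V0 subunits fell with a median of -0.37. The difference between the sectors was not tested. The isoform Atp6v0a4, known from kidney, had 4, 2.01 and 5.02 counts in the first 3 libraries and 58 in risperidone replicate 2, the library with kidney markers, and was not tested.

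**Figure D4:**
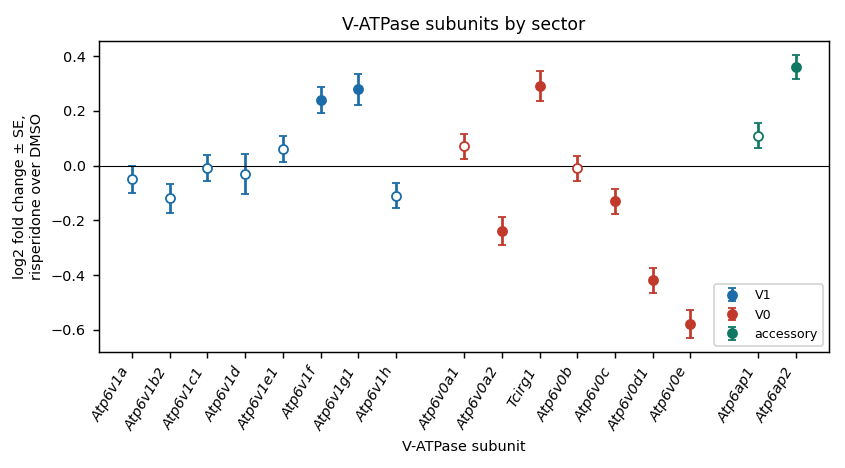
Log2 fold change with its standard error for each broadly expressed V-ATPase subunit other than Rnasek, grouped into the V1 sector, the V0 sector and the accessory subunits. Filled points are subunits that passed the test and open points those that did not. V0 values run from -0.58 for Atp6v0e to 0.29 for Tcirg1, and V1 values from -0.12 to 0.28.

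Promoter sequence was examined because TFEB and its relatives bind the E-box CACGTG, most strongly within TCACGTGA. Both motifs read the same on either strand, and the second contains the first. RefSeq windows of 300 bases on GRCm38.p6 ran from 250 bases before the start site to 50 bases from it. They were matched by gene identifier for 31 of the 36 genes, all but Ctsb, Galns, Npc1, Atp6v1b2 and Atp6v1h. Ctsa has more than 1 window, and the motif is in the one shown. CACGTG occurred in 14 of the 31 (45.2%), in 18.5% of 65 other lysosomal genes, in 12.1% of 8329 tested genes and in 8.09% of all 27025 genes with windows. TCACGTGA occurred in 7 of the 31 (22.6%), against 12.3%, 2.52% and 1.12% in the same sets. Of the 14 genes with CACGTG, 8 rose, 3 fell and 3 did not pass. The 7 genes with TCACGTGA were Ctsa, Ctsd, Gla, Mcoln1, Atp6v1a, Atp6v0d1 and Atp6v0e, of which 3 rose, 2 fell and 2 did not pass. A match is a description of the sequence and does not show that a factor was bound. The windows of the 4 with the largest absolute change are shown because they carry the same motif, in capitals, and moved in opposite directions. They lie at chr17:26676146-26676445 on the plus strand (Atp6v0e), chr2:164833523-164833822 on the plus strand (Ctsa), chr8:105566015-105566314 on the minus strand (Atp6v0d1) and chr7:142387778-142388077 on the minus strand (Ctsd), where a CACGTG outside the longer motif is also in capitals.
Atp6v0e: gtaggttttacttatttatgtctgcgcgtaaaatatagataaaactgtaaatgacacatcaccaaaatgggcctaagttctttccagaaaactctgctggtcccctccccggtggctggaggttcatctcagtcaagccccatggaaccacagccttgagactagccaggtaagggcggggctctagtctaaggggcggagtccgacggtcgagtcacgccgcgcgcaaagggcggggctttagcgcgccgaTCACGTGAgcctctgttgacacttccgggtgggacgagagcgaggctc
Ctsa: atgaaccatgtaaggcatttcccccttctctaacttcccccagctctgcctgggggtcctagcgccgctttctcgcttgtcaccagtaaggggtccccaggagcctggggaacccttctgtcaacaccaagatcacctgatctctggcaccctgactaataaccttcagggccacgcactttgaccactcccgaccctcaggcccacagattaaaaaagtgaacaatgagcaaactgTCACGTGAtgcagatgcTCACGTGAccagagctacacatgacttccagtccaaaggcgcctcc
Atp6v0d1: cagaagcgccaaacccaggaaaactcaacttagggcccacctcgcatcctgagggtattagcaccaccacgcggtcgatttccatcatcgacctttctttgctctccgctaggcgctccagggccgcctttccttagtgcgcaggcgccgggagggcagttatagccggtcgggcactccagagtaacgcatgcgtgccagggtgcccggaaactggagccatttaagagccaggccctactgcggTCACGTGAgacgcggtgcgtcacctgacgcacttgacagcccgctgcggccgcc
Ctsd: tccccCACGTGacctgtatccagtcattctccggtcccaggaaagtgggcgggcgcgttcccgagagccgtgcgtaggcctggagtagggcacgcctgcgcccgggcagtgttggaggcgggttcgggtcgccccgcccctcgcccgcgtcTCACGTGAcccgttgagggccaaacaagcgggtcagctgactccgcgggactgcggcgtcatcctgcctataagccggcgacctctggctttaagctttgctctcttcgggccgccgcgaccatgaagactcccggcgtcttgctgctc

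The motif starts at base 253 of the Atp6v0e window, just after the start site, and at base 247 of the Atp6v0d1 window, just before it. Ctsa holds the motif at bases 238 and 255, and Ctsd at base 152. Atp6v0e and Atp6v0d1 fell, with fold changes of 0.669 and 0.748, whereas Ctsa and Ctsd rose 1.39-fold and 1.32-fold.

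Of the factors themselves, Tfe3 and Mitf fell slightly. Tfeb had 7.36 and 7.38 CPM with DMSO and 7.61 and 7.16 CPM with risperidone, and did not pass (edgeR adjusted p = 0.988). Tfe3 fell from 149.7 and 155 CPM to 140.3 and 123 CPM (log2 fold change -0.21, SE 0.0604), and Mitf from 32.7 and 33.1 CPM to 29.7 and 27.8 CPM (-0.19, SE 0.0629), and neither passed after offsets for length and GC content (edgeR adjusted p = 0.121 and 0.207) or without risperidone replicate 2 (0.0638 and 0.127). Leaving out DMSO replicate 2 also ended both calls (0.0746 and 0.0871), and leaving out DMSO replicate 1 that of Mitf (0.077). Tfec had at most 2 counts in any library. Of 13 tested genes of the TFEB family and the Rag complex that recruits it to the lysosome, 3 rose, 6 fell and 4 did not pass, with a median log2 fold change of -0.19. The falls numbered 3 without DMSO replicate 2 and 4 without risperidone replicate 2, with 3 rises in each case, the median was -0.12 without the latter and -0.10 after offsets for length and GC content, and on TPM 9 fell and none of the 3 kept its call. The Rag GTPase gene Rraga rose 1.27-fold (log2 value 0.10 on TPM, limma adjusted p = 0.102) and the Ragulator subunit Lamtor1 fell to 0.827 of the DMSO level. The activity of TFEB is set largely by its phosphorylation and its place in the cell, which were not measured.

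The rest of the organelle was described from 5 lists of 106 further names, of which 86 were tested. Of these, 32 rose, 28 fell and 26 did not pass, and the median log2 fold change was 0.03. Other soluble hydrolases again contained more genes that rose, with 4 of 7 proteases and 7 of 12 glycosidases and their cofactors higher and 1 of each lower. Their medians were 0.27 and 0.19, and 0.21 and 0.18 without risperidone replicate 2. Hyal1, counted in the 7 and in the 32, passed the filter on low values only through the risperidone libraries. With a mean of at least 5 FPKM required, 5 of 9 glycosidases rose and 2 fell. On TPM 1 protease rose and 3 fell and 4 glycosidases rose and 4 fell. Scpep1, a serine carboxypeptidase, rose 1.60-fold, and Arsa, the arylsulfatase that degrades sulfatide, 1.5-fold. Of 19 sulfatases, lipases and phosphatases, 9 rose and 7 fell (4 fell without DMSO replicate 2, and on TPM 3 rose and 9 fell), and the acid phosphatase Acp2, whose counts were partly shared with other genes, fell to 0.508 of the DMSO level. The 29 other membrane proteins had 7 that rose and 14 that fell, with a median of -0.12, and the falls numbered 8 and 9 without DMSO replicate 1 and 2, while on TPM 2 rose and 18 fell. Among them the amino acid transporters Slc36a1 and Pqlc2 fell to 0.507 and 0.524 of the DMSO level. Slc36a1 had 26.3 and 25.6 CPM with DMSO and 13.2 and 13.0 CPM with risperidone. Without DMSO replicate 1, 17 rather than 28 of the 86 genes fell, and on TPM 11 rose and 47 fell.

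Cd68 and Hyal1, which had the largest fold changes upward on these lists, were of low level. The hyaluronidase Hyal1 had 1.01 and 0.732 CPM with DMSO and 3.33 and 3.48 CPM with risperidone, a 3.88-fold change. Its mean of 1.02 FPKM passed the filter on low values only through the risperidone libraries, with 0.51 and 0.37 FPKM with DMSO and 1.56 and 1.65 FPKM with risperidone, so it is given as a description. Cd68, a lysosomal glycoprotein used as a macrophage marker, had 2.85 and 3.78 CPM with DMSO and 7.36 and 7.74 CPM with risperidone. Cd14, the other macrophage marker that reached a mean of 1 FPKM, fell, as given above. Of 16 genes that sort new hydrolases to the lysosome, 4 rose, 3 fell and 9 did not pass, with a median of -0.04, and on TPM 1 rose and 11 fell. Without risperidone replicate 2, 3 rose and 6 fell, and without DMSO replicate 1, 3 rose and 2 fell. The adaptor gene Gga1 rose 1.37-fold and the retromer subunit Vps26a fell to 0.684 of the DMSO level.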

How the data were processed

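Messenger RNA was sequenced on MGISEQ-2000 from 2 DMSO and 2 risperidone libraries. Per the study's methods, adaptor, poly-N and low-quality reads were removed before mapping. The submitters' processing notes name Bowtie2, RSEM, DESeq2 and GRCm38.p6, with no role or version. For 16051 genes the authors deposited estimated counts (expected counts, not normalized), FPKM and TPM values per library. The authors' 6 columns of group means were not used.

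Estimated counts were rounded, and the 10243 genes whose mean reached 1 FPKM were tested with edgeR 4.0.16 in R 4.3.3 (TMM, quasi-likelihood F-test, two-sided, Benjamini-Hochberg at 0.05). TMM factors were 1.03, 1.03, 0.963 and 0.973 and the biological coefficient of variation was 0.0468. A standard error is the absolute log2 fold change over the square root of F. A count of 0 allows up to 3 counts, or 0.183 to 0.189 CPM, for counting error only. Between replicates, 12.4% of genes with DMSO and 23.5% with risperidone differed past the counting error that 5 in 100 genes exceed. Genes were grouped by the treatment label. The genes and lists were chosen with earlier results of these data known. Named were all 36 genes, up to 3 called genes with the largest change on each other list, the TFEB family, all broadly expressed pump subunits, marker genes, and at most 6 promoters with TCACGTGA in order of absolute change, of which 4 are shown. Lpl, Pparg, Pnpla2, Lipe, Plin1, Cfd, Retn, Lep, Atp6v1f, Atp6v1g1, Atp6v0c, Atp6v0a2, Tcirg1, Atp6v0a4, Col1a1, Col1a2, Col3a1, Vim, Pdgfra, Dlk1 and Thy1 were added after their values were seen. Alternatives were RLE size factors, library size, no filter, a mean of at least 5 FPKM, DESeq2 1.42.0, limma 3.58.1 on log2(FPKM + 1), log2(FPKM + 0.1) and log2(TPM + 1), a replicate block, offsets for length and GC content from GENCODE (99.1% of tested genes matched), and each library left out. Fits by edgeR, DESeq2, limma on log2(FPKM + 1), edgeR with the replicate block and edgeR with the offsets were tested on simulated data. The other alternatives were not. Figures were drawn with matplotlib 3.10.9.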

Additional observations from a re-analysis of the deposited data

How the results depend on the processing

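Relative to the 20 genes that rose and the 7 that fell, library size as the only scaling, limma on FPKM and limma on TPM gave fewer rises. The rises were 12 with limma on log2(FPKM + 1) and 12 on log2(FPKM + 0.1), and on log2(TPM + 1) there were 9 rises and 15 falls. Past 1.5-fold upward, in place of 3 genes, there was 1 with library size, 1 with each FPKM pseudocount and 0 with TPM. Past 1.5-fold downward, in place of 2, there were 4 with library size, 4 with each FPKM pseudocount and 5 with TPM. On TPM, 11 other lysosomal genes rose and 47 fell, and over all genes 1536 rose and 5292 fell. The median of all genes was -0.22 there, -0.09 with library size and -0.08 with log2(FPKM + 1), which accounts for a shift in one direction. With 1 library left out, a fit in which the lone library is assumed to vary like the other group, 13 to 24 of the 36 genes rose and 6 to 8 fell, 1 to 3 passed 1.5-fold upward and 2 to 3 downward, and 29 to 35 of the other lysosomal genes rose and 17 to 28 fell.

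Values that changed sign on TPM were Tpp1 -0.11, Hexa -0.12, Gla -0.06, Glb1 -0.02, Neu1 -0.02, Lipa -0.13, Psap -0.15, Lamp2 -0.06, Scarb2 -0.07, Laptm4a -0.14 and Atp6ap1 -0.13. Psap was just below zero (0.00 when rounded) with library size and with either FPKM pseudocount, and so was Laptm4a with the latter. Atp6v1a became 0.03 with the offsets, and Mcoln1 became 0.00 without DMSO replicate 1 and 0.01 without risperidone replicate 2. Over the 36 genes and 14 alternatives, where a fit could be made, 402 of 503 values kept direction and side of the threshold, 57 no longer passed, 25 newly passed and 19 changed sign.

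Replicate numbers are shared between the groups. Deviations of same-numbered libraries from their group means had a correlation of -0.07 over 10184 genes, so no shared deviation was seen. With 2 libraries per group this cannot exclude that the numbers pair the libraries. With a replicate block, 17 of the 36 genes rose and 6 fell. Tpp1, Hexa, Lamp2 and Cd63 no longer passed, at edgeR adjusted p of 0.0755, 0.0894, 0.0898 and 0.0706. Depth limits Ctsf, at 65 to 87 reads a library, and 2 pooled libraries per group limit small changes.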
